A study of Rattus norvegicus with 71 samples.

Results

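Gene expression under 2 pyrimidine antimetabolites was set side by side at concentrations that had left little RNA of the oligodendrocyte lineage: 5-fluorouracil at 1 µM (3 libraries) and cytosine arabinoside at 0.1 µM (3 libraries), 6 of the 71 libraries of the series. The pair was chosen because oligodendrocyte genes were low in both groups, so the levels, medians and calls of those genes describe the pair and support nothing, and no p is given for them. The concentrations differ 10-fold, so compound and concentration cannot be told apart within the pair. Pairs at equal concentrations follow for that reason.

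The study exposed primary rat cortical cells, plated on multi-well microelectrode arrays, to 6 compounds and sequenced polyA-selected RNA from 25 groups of compound and concentration. Dosing began 2 h after plating and was renewed on days in vitro 5, 7 and 9, and collection was on day 12. Each library pooled 2 to 3 wells treated alike, and the experiment was run on 2 separate cultures. Besides the chosen pair, the groups used here were 5-fluorouracil at 0.1 and 0.3 µM (3 libraries each), cytosine arabinoside at 0.3 and 1 µM (3 libraries each), and the vehicle wells of each compound's own set, called 0 µM, with 2 libraries for 5-fluorouracil and 3 for cytosine arabinoside. The labels do not say which library came from which culture, so p-values measure the spread between these libraries, which may be partly technical.

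Both drugs interfere with the making of DNA, but they differ in structure and in entry point. Cytosine arabinoside is a nucleoside, cytosine joined to the sugar arabinose in place of deoxyribose. Deoxycytidine kinase (Dck) phosphorylates it, and the resulting triphosphate is built into DNA and stalls chain growth. 5-Fluorouracil is a free base, uracil carrying a fluorine. Cells convert it to nucleotides that block thymidylate synthase (Tyms), starving replication of thymidine, and that also enter RNA and DNA. In cortical cultures the cells that still divide are mainly glia and their precursors. Oligodendrocyte precursor cells (OPCs) are dividing cells of the postnatal brain that mature into the myelin-forming oligodendrocytes, whereas cortical neurons have left the cell cycle.

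The 6 libraries of the pair held 8.36 to 11.7 M counts, and all 71 libraries held 5.21 to 43.1 M with a median of 10.2 M. The sample titles carry 1 of 2 project prefixes, GRC321 or GRC327. Each group of the pair had 1 GRC321 library (replicate 1) and 2 GRC327 libraries, while both 0 µM libraries of 5-fluorouracil were GRC327. Project separated the libraries more than compound did. Across 15343 genes, Spearman's rho was 0.985 between the GRC321 libraries of 5-fluorouracil and cytosine arabinoside, against 0.957 and 0.962 between the GRC321 library of 5-fluorouracil and its GRC327 replicates. Mitochondrially encoded transcripts took 5.49% (5-fluorouracil) and 5.09% (cytosine arabinoside) of the counts in the GRC321 libraries and 2.38 to 3.31% in the 4 GRC327 libraries. All tests below therefore carry a project term. Levels are CPM, counts relative to library size with TMM scaling, and they are given in the order replicate 1, 2, 3.

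The tissue label is rat cortical neurons, and neuronal genes were abundant in every library. The 18 pan-neuronal markers summed to 13247 to 20068 CPM under 5-fluorouracil and 14404 to 17960 CPM under cytosine arabinoside, against 11940 and 11302 CPM in the 0 µM libraries of 5-fluorouracil and 12078 to 15629 CPM in those of cytosine arabinoside. The 0 µM libraries also held astrocyte and oligodendrocyte RNA, so the cultures were mixed. Of 16 microglial markers only 1 passed the filter on low counts.

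RNA of OPCs and of oligodendrocytes was low in both treated groups. Pdgfra, the receptor for platelet-derived growth factor that marks OPCs, stood at 8.81, 16.03 and 6.02 CPM under 5-fluorouracil 1 µM and at 4.12, 4.17 and 2.79 CPM under cytosine arabinoside 0.1 µM, against 541 and 488 CPM in the 0 µM libraries of 5-fluorouracil and 608, 577 and 527 CPM in those of cytosine arabinoside. Every 5-fluorouracil library lay above every cytosine arabinoside library, and all 6 lay far below all 5 of the 0 µM libraries. Gpr17, a receptor of precursors committed to differentiate, had 0.194, 1.34 and 0.0972 CPM under 5-fluorouracil and 0, 0.110 and 0 CPM under cytosine arabinoside, 16 counts in all against 1, where the 0 µM libraries held 48.2 and 50.3 CPM (5-fluorouracil) and 34.5 to 51.2 CPM (cytosine arabinoside). Sox10, the transcription factor of the whole lineage, was at 0.871, 0.827 and 0 CPM under 5-fluorouracil and 0, 0.329 and 0.253 CPM under cytosine arabinoside. These Sox10 levels overlapped between the drugs, against 33.3 to 51.6 CPM over the 5 libraries at 0 µM.

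Other precursor genes kept more of their RNA. Cspg4, the NG2 proteoglycan, had 2.23, 8.58 and 3.40 CPM under 5-fluorouracil and 2.47, 2.75 and 2.03 CPM under cytosine arabinoside, against 53.8 to 110.0 CPM at 0 µM. Olig2, a lineage transcription factor that some astrocytes also express, had 32.2, 34.4 and 29.2 CPM under 5-fluorouracil and 26.8, 21.4 and 22.3 CPM under cytosine arabinoside, against 85.6 to 159 CPM at 0 µM. Of the 16 OPC genes 15 were tested, and 12 of these 15 had a log2 difference above 0 (5-fluorouracil 1 µM minus cytosine arabinoside 0.1 µM), with a median of 0.49 (range 0.14 to 0.81 over 17 alternative settings). Without the second 5-fluorouracil library, the highest for Pdgfra, Cspg4 and Gpr17, the median was 0.14.

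Genes of maturing and myelinating oligodendrocytes were low under both drugs as well. Mbp, myelin basic protein, had 9.39, 15.2 and 15.9 CPM under 5-fluorouracil and 10.8, 13.9 and 12.5 CPM under cytosine arabinoside, against 57.4 to 121 CPM over the 5 libraries at 0 µM. Mag, an adhesion protein of the inner myelin surface, had 1.26, 1.55 and 0.972 CPM under 5-fluorouracil and 1.34, 0.878 and 0.760 CPM under cytosine arabinoside. Mbp and Mag overlapped between the drugs. Over the 20 myelin genes tested of 22, the median log2 difference was 0.12 (-0.01 to 0.32 over 17 alternative settings, with 0.32 without the first cytosine arabinoside library and 0.02 without the first 5-fluorouracil library), and their summed level was 117 to 128 CPM under 5-fluorouracil and 118 to 126 CPM under cytosine arabinoside, against 644 to 1424 CPM over the libraries at 0 µM. In bulk RNA, fewer cells of a type and less RNA per cell cannot be told apart.

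**Figure D1:**
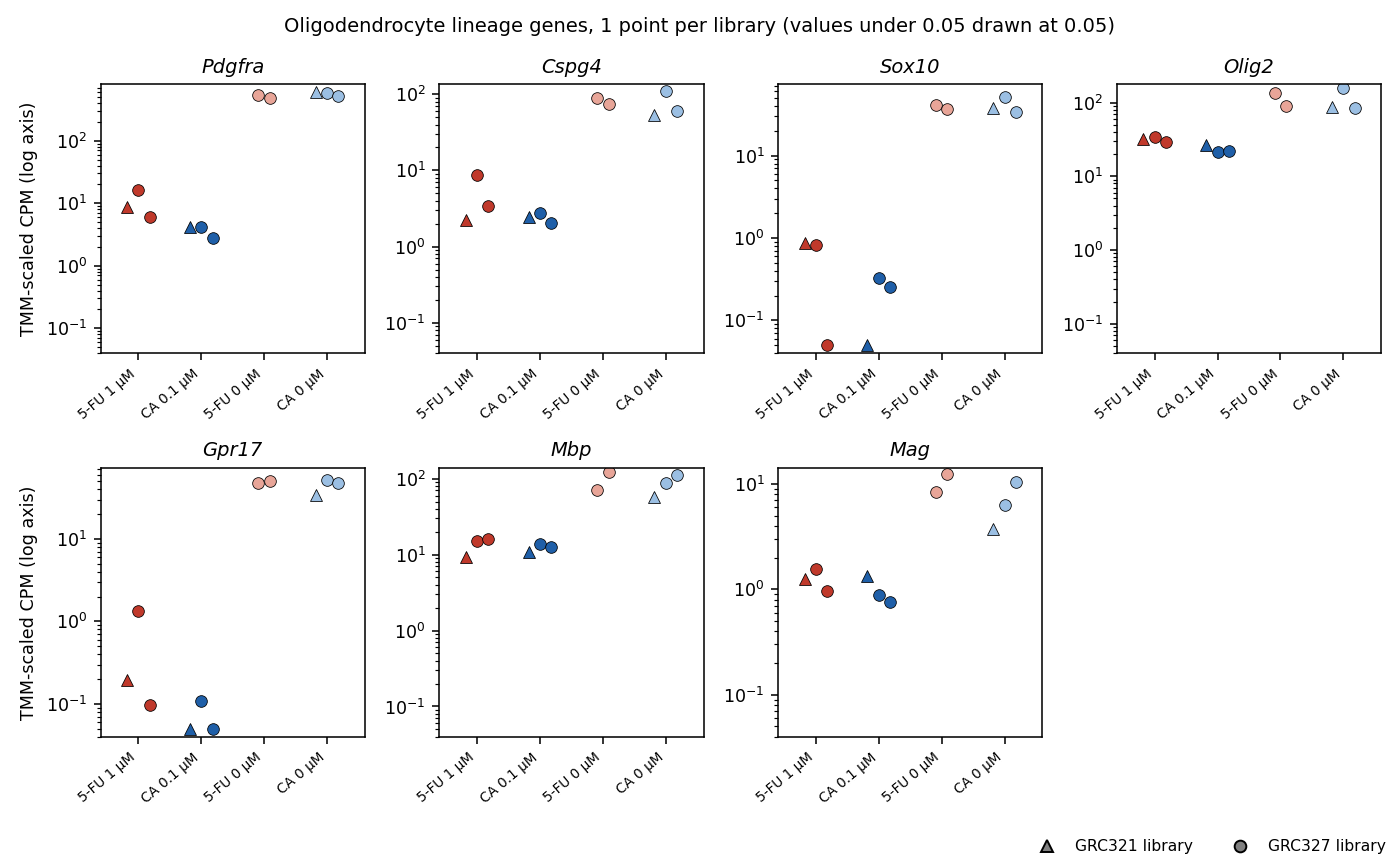
Levels of 7 oligodendrocyte-lineage genes (CPM, log axis) in each library of 5-fluorouracil 1 µM, cytosine arabinoside 0.1 µM and the 0 µM libraries of each compound, with triangles for GRC321 and circles for GRC327 libraries and values under 0.05 CPM drawn at 0.05. Pdgfra lies at 2.79 to 16.03 CPM in the 6 treated libraries and at 488 to 608 CPM in the 5 libraries at 0 µM.

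Between the drugs, few genes were called. Of 15343 genes tested, 6 (0.0391%) passed an adjusted p of 0.05 in the direct comparison of 5-fluorouracil 1 µM with cytosine arabinoside 0.1 µM (edgeR quasi-likelihood test, Benjamini-Hochberg over all genes). Of these, 5 (0.0326%) were higher and 1 (0.00652%) was lower under 5-fluorouracil. The 6 are called genes in what follows. Pdgfra was among the higher ones and belongs to the genes that chose the pair. Outside the oligodendrocyte lists the higher ones were Mcm3, Tmem109, Ccdc120 and Sf3b3, and the lower one was Nalcn. The pair was proposed with earlier results in view, so the low count is partly set by that choice.

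The data bounded many differences as well as leaving them uncalled. The 95% interval of the difference stayed within 2-fold in either direction for 10923 genes (71.2%), and for 10053 of the 10718 genes with at least 5 CPM on average (93.8%). An estimate past 2-fold was seen for 757 genes (4.93%), and 1493 genes (9.73%) had an unadjusted p under 0.05. The 3 libraries of one drug lay wholly above or below the 3 of the other for 1114 genes (7.26%), with 654 (4.26%) higher and 460 (3%) lower under 5-fluorouracil. Each call depended on single libraries. Leaving out any 1 of the 6 libraries left 0 or 1 call, and only Nalcn (without the third cytosine arabinoside library, adjusted p = 0.0493) and Pdgfra kept a call in any of those 6 fits.

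Mcm3, a subunit of the MCM helicase that opens DNA at replication origins, had 2.81, 6.41 and 9.04 CPM under 5-fluorouracil 1 µM and 1.34, 2.42 and 3.04 CPM under cytosine arabinoside 0.1 µM. At 0 µM it had 11.9 and 6.41 CPM (5-fluorouracil) and 9.23, 9.49 and 6.94 CPM (cytosine arabinoside). Replicate 1, from GRC321, was the lowest of each drug, and the ranges of the drugs overlapped across projects but not within them. The log2 difference was 1.32 (95% interval 0.77 to 1.87, adjusted p = 0.0387, edgeR). It was 0.98 between the GRC321 libraries and 1.43 between the GRC327 libraries. Without the first cytosine arabinoside library it was 0.96 with an adjusted p of 0.363.

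Tmem109, an intracellular membrane protein, had 14.8, 12.1 and 13.9 CPM under 5-fluorouracil and 6.38, 9.00 and 9.12 CPM under cytosine arabinoside, with 12.2 and 10.6 CPM in the 0 µM libraries of 5-fluorouracil and 8.19, 10.2 and 11.1 CPM in those of cytosine arabinoside. The treated groups did not overlap. The log2 difference was 0.75 (95% interval 0.44 to 1.06, adjusted p = 0.0387), 1.19 within GRC321 and 0.51 within GRC327. Ccdc120, a coiled-coil protein, had 23.9, 22.6 and 24 CPM under 5-fluorouracil and 15.6, 15.4 and 15.5 CPM under cytosine arabinoside, the tightest pair of groups among the called genes. Its log2 difference was 0.60 (95% interval 0.35 to 0.85, adjusted p = 0.0387), but its 0 µM libraries also lay apart, at 17.2 and 17.3 CPM for 5-fluorouracil and 14.6, 14.3 and 13.3 CPM for cytosine arabinoside.

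Sf3b3, a subunit of the SF3b complex that helps the spliceosome recognise the branch point, had 149, 147 and 139 CPM under 5-fluorouracil and 117, 93.3 and 101 CPM under cytosine arabinoside. Its 0 µM levels, 96.6 and 118 CPM for 5-fluorouracil and 119, 89.3 and 96.4 CPM for cytosine arabinoside, covered the cytosine arabinoside range and lay below the 5-fluorouracil libraries. The log2 difference was 0.49 (95% interval 0.29 to 0.68, adjusted p = 0.0387). The gene model of Sf3b3 in the deposited table contains that of the small nucleolar RNA Snord111, so shared reads could not be separated here.

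Nalcn, the sodium leak channel that helps set the resting potential of neurons, was the one gene called lower under 5-fluorouracil. It had 138, 132 and 113 CPM under 5-fluorouracil and 210.1, 185 and 167 CPM under cytosine arabinoside, with no overlap. At 0 µM it had 174 and 166 CPM (5-fluorouracil) and 193, 183 and 178 CPM (cytosine arabinoside), so the 5-fluorouracil libraries lay below all 5 libraries at 0 µM. The log2 difference was -0.56 (95% interval -0.77 to -0.34, adjusted p = 0.0351), with -0.61 in GRC321 and -0.53 in GRC327.

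In the deposited table's coordinates, whose genome build is not given in the sources used here, Mcm3 spans bases 26914057 to 26932202 of chromosome 9 (minus strand), Tmem109 spans 226925117 to 226935690 of chromosome 1 (minus), Ccdc120 spans 15598652 to 15617666 of chromosome X (plus), Sf3b3 spans 43392085 to 43429581 of chromosome 19 (plus) and Nalcn spans 109735595 to 110046705 of chromosome 15 (minus).

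**Figure D2:**
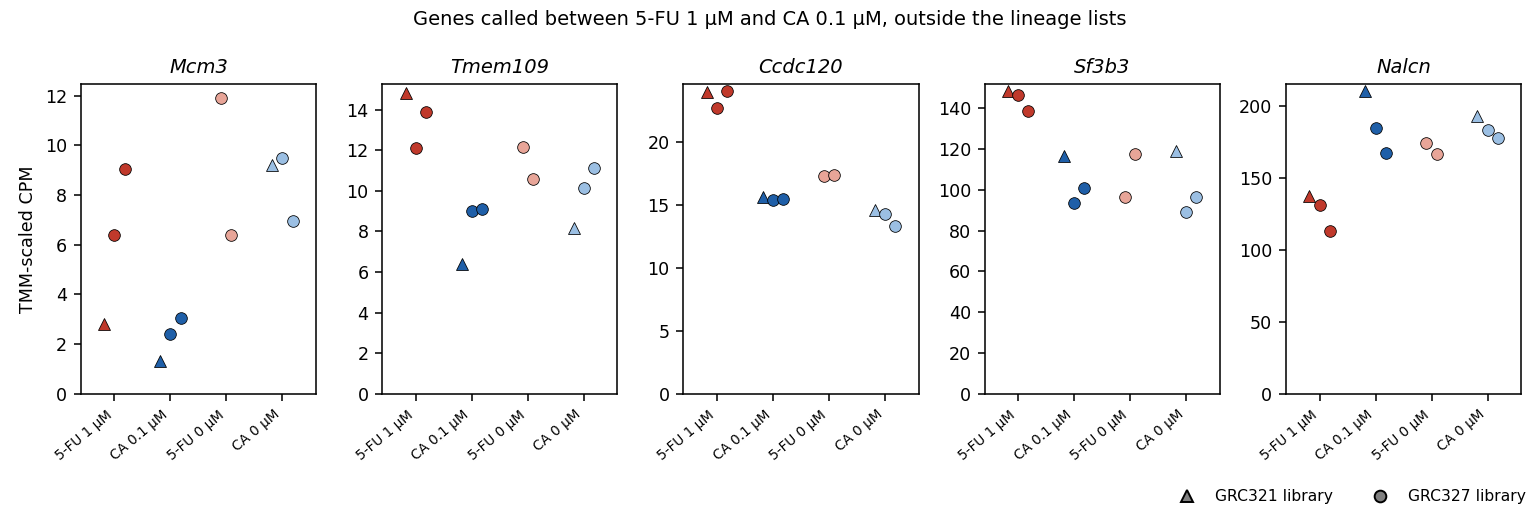
Levels of Mcm3, Tmem109, Ccdc120, Sf3b3 and Nalcn (CPM, linear axes from 0) in each library of 5-fluorouracil 1 µM, cytosine arabinoside 0.1 µM and the 0 µM libraries of each compound, with triangles for GRC321 and circles for GRC327. Nalcn lies at 113 to 138 CPM under 5-fluorouracil and 167 to 210.1 CPM under cytosine arabinoside, while Mcm3 overlaps between the drugs across projects.

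No gene was called once each drug was first set against its own 0 µM libraries. The difference of the effects, 5-fluorouracil 1 µM against its 0 µM minus cytosine arabinoside 0.1 µM against its 0 µM, was called for 0 of 15343 genes (0%) by edgeR, with 531 (3.46%) at an unadjusted p under 0.05, and DESeq2 called 1 gene. This contrast is less precise, since it adds the error of 2 and 3 further libraries. Both 0 µM libraries of 5-fluorouracil were GRC327, so the contrast also rests on the project term. For 5-fluorouracil that term was estimated from the treated groups alone. For Mcm3 the difference of effects was 1.65 on the log2 scale (95% interval 0.90 to 2.40, adjusted p = 0.182), for Nalcn -0.49 (95% interval -0.81 to -0.16, adjusted p = 1), and for Sf3b3 0.38 (95% interval 0.07 to 0.68, adjusted p = 1). For Ccdc120 it was 0.26 (95% interval -0.12 to 0.63, adjusted p = 1). Between the 0 µM libraries of the drugs 1 gene (0.00652%) was called, with 713 (4.65%) at an unadjusted p under 0.05. It was Kank4, at 0.0760 and 0.0588 CPM (1 count in each library) in the 0 µM libraries of 5-fluorouracil and 1.35, 0.929 and 1.38 CPM in those of cytosine arabinoside.

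Genes of the cell cycle lay mostly above the cytosine arabinoside level under 5-fluorouracil. Of 21 mitosis genes tested, 20 had a log2 difference above 0, against 53.4% of all genes. The median was 0.54, against 0.02 over all 15343 genes. None was called, 8 had an unadjusted p under 0.05 (9.73% of all genes did), and the median kept its sign in all 17 alternative settings, between 0.41 and 0.69. It was 0.32 within GRC321 and 0.56 within GRC327. The summed level of the list was 180, 265 and 271 CPM under 5-fluorouracil and 141, 149 and 195 CPM under cytosine arabinoside, against 529 and 357 CPM in the 0 µM libraries of 5-fluorouracil and 436, 513 and 476 CPM in those of cytosine arabinoside. The sums of the drugs overlapped across projects and not within them.

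Nusap1, which bundles microtubules of the spindle, had 4.45, 5.69 and 4.57 CPM under 5-fluorouracil and 2.68, 2.31 and 2.66 CPM under cytosine arabinoside, with no overlap. Its log2 difference was 0.95 (95% interval 0.44 to 1.45, adjusted p = 0.227). Mki67, the proliferation marker Ki-67, had 16.9, 31.1 and 29.6 CPM under 5-fluorouracil and 12.1, 15.6 and 17.6 CPM under cytosine arabinoside, a log2 difference of 0.75 (95% interval 0.32 to 1.18, adjusted p = 0.283). Its GRC321 library of 5-fluorouracil lay inside the cytosine arabinoside range, and within each project the 5-fluorouracil libraries were higher.

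The DNA replication list, which holds the MCM helicase, the replicative polymerases and their loaders, was nearer to 0. Of its 20 genes tested, 19 were above 0, against 53.4% of all genes. The median log2 difference was 0.27 (0.19 to 0.35 over 17 alternative settings), and it was 0.10 within GRC321 and 0.28 within GRC327. Mcm3 was the one member called, against 0.0326% of all genes called higher. An unadjusted p under 0.05 was seen for 4 members, against 9.73% of all genes. The neural progenitor list (15 genes) had a median of 0.30, with 0 called. Its smallest p was at Nes, the intermediate filament nestin of dividing progenitors and reactive glia, with 54.6, 126 and 114 CPM under 5-fluorouracil and 43.1, 60.9 and 68.9 CPM under cytosine arabinoside (log2 difference 0.70, 95% interval 0.29 to 1.12, adjusted p = 0.283). Notch1, a receptor that keeps progenitors undifferentiated, followed with a log2 difference of 0.60 (95% interval 0.20 to 1.00, adjusted p = 0.323). The OPC genes were also above 0 in this comparison (median 0.49), as was Pdgfra, and the part of these cells in the difference of the cell cycle lists was not tested.

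**Figure D3:**
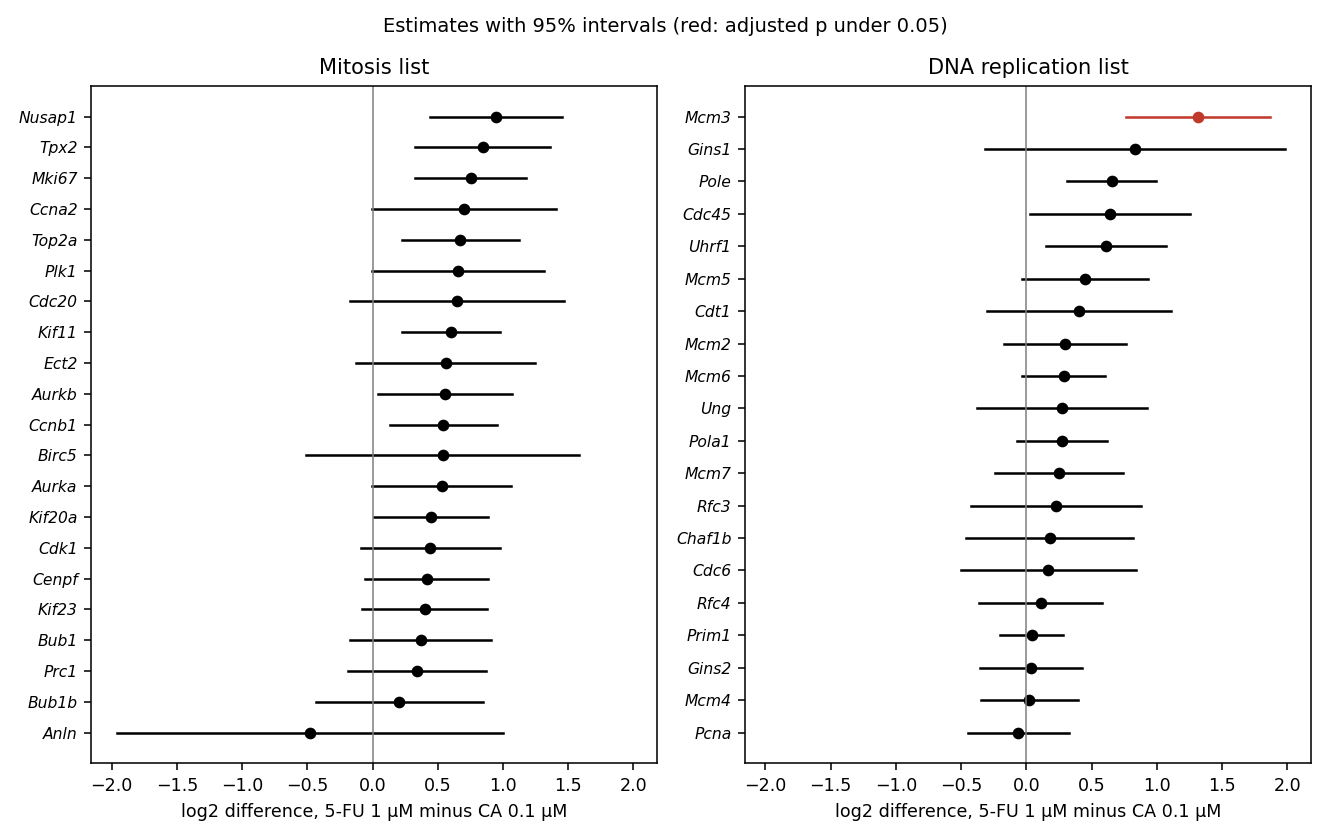
Log2 difference between 5-fluorouracil 1 µM and cytosine arabinoside 0.1 µM for 21 mitosis and 20 DNA replication genes, with points for the edgeR estimate and bars for its 95% interval. All but 1 gene of each list lie above 0, and only Mcm3, drawn in red, has an adjusted p under 0.05.

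Promoters of 4 cell cycle genes are shown as context for these lists: Mcm3, called here, Nusap1 and Mki67, the mitosis genes of smallest p, and Mcm5, another helicase subunit, chosen afterwards because it holds both motifs described next. Each is the 250 bases upstream of the start in RefSeq (GRCr8, a build that may differ from that of the deposited table), 5′ to 3′ on the strand of the gene. Capitals mark E2F words (TTTCCCGC, TTTGGCGC, TTTCGCGC or TTTGCCGC), the letters bound by factors that control replication genes, and the CCAAT box bound by NF-Y, searched on both strands, so that ATTGG is a CCAAT box on the other strand. Mcm3 lies at chr9:30733747-30733996 (minus strand), Mcm5 at chr19:13488563-13488812 (plus), Nusap1 at chr3:127057045-127057294 (plus) and Mki67 at chr1:199952594-199952843 (minus).
Mcm3: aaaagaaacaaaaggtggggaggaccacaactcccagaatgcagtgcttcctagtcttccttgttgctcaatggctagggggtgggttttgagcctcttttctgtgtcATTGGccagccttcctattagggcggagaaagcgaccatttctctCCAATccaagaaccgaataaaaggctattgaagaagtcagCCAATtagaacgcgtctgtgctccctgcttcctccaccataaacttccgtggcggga
Mcm5: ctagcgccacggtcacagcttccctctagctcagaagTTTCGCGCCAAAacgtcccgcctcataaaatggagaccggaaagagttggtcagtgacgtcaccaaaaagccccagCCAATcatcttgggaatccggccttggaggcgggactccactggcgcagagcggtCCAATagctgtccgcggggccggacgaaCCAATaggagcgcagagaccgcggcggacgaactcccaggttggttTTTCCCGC
Nusap1: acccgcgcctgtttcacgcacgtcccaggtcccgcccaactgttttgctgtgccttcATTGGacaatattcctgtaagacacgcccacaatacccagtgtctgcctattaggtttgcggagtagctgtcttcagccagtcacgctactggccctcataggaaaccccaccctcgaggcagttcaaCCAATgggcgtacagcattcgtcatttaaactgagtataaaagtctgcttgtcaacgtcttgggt
Mki67: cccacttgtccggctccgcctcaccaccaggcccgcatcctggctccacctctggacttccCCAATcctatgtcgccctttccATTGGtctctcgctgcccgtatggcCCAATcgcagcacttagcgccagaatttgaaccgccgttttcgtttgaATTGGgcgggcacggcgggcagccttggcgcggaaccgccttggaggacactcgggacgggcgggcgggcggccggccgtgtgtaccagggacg

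An E2F word was found in the Mcm5 window at 3 places, of which 2 overlap, and in none of the windows of Mcm3, Nusap1 and Mki67. CCAAT boxes numbered 3 in Mcm3, 3 in Mcm5, 2 in Nusap1 and 4 in Mki67. Over the lists, 18 DNA replication and 19 mitosis genes matched a promoter. An E2F word occurred in 7 of the 18 replication promoters (38.9%) and in 1 of the 19 mitosis promoters (5.26%), against 580 of 33465 windows in the table (1.73%). CCAAT boxes were in 13 of the 18 (72.2%) and in 15 of the 19 (78.9%), against 11384 windows (34%). A match describes the letters of the window, not binding.

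No gene of the pathways that activate, use or remove the drugs was called. Of 41 genes of pyrimidine and deoxynucleotide metabolism 35 were tested, the median log2 difference was -0.02, and 30 of the 35 had an interval within 2-fold, against 71.2% of all genes. The latter share was 93.8% over genes with at least 5 CPM on average. Tyms, the target of the active form of 5-fluorouracil, had 19.8, 7.65 and 11.7 CPM under 5-fluorouracil and 14.3, 12.96 and 11.5 CPM under cytosine arabinoside, with overlap and a log2 difference of -0.07 (95% interval -0.47 to 0.34, adjusted p = 0.943). Dck, the kinase that activates cytosine arabinoside, had 75.1, 18.9 and 18.9 CPM under 5-fluorouracil and 60.4, 26.4 and 29.6 CPM under cytosine arabinoside. Its level followed project more than drug, the GRC321 library of each being the highest, and the log2 difference was -0.25 (95% interval -0.57 to 0.07, adjusted p = 0.632).

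Dpyd, which degrades 5-fluorouracil, had 15.8, 15.6 and 14.3 CPM under 5-fluorouracil and 14.5, 18.7 and 19.1 CPM under cytosine arabinoside (log2 difference -0.18, 95% interval -0.69 to 0.34, adjusted p = 0.857). Umps, which can turn 5-fluorouracil into its ribonucleotide, had 11.4, 20.5 and 18.3 CPM under 5-fluorouracil and 12.2, 15.3 and 13.7 CPM under cytosine arabinoside (log2 difference 0.24, 95% interval -0.16 to 0.64, adjusted p = 0.719). Slc29a1, a nucleoside transporter of the plasma membrane, differed by -0.05 (95% interval -0.67 to 0.57, adjusted p = 0.978), and Upp1, uridine phosphorylase, was near 0 everywhere, at most 0.380 CPM in the 6 libraries. These genes overlapped between the drugs, except Upp1 at its few counts. Tk1, the thymidine salvage kinase that cycles with S phase, stood apart from them with 7.84, 9.31 and 8.07 CPM under 5-fluorouracil and 7.00, 4.50 and 4.43 CPM under cytosine arabinoside. Its groups did not overlap, and its log2 difference of 0.67 (95% interval 0.16 to 1.19) had an adjusted p of 0.376. Cad, another member, had the smallest p of the list, with a log2 difference of 0.52 (adjusted p = 0.323, edgeR). Of the 35 members 4 were higher under 5-fluorouracil at an unadjusted p under 0.05 and 0 were lower. Of all genes 9.73% had such a p in either direction.

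Genes tied to the damage and RNA effects of the drugs were not called either. Of 23 p53 targets tested 16 had an interval within 2-fold, against 71.2% of all genes and 93.8% of genes with at least 5 CPM on average. The median log2 difference was -0.08 (-0.10 to 0.06 over 17 alternative settings, with the same sign in 10). It was 0.22 within GRC321 and 0.05 within GRC327, so its sign was not settled. The smallest p values were at Ccng1, cyclin G1 (log2 difference -0.47, adjusted p = 0.328), and Aen, a p53-induced nuclease (0.59, adjusted p = 0.445). The list of 24 genes of RNA processing holds ribosome and RNA-modification factors that fluorinated uridine can affect. Its median was 0.14, and 16 members were above 0, against 53.4% of all genes. Npm1, a nucleolar chaperone, was at 0.33 (adjusted p = 0.402) and Bop1, a ribosome assembly factor whose gene model overlaps another, at 0.37 (adjusted p = 0.457).

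No neuronal or astrocyte marker was called between the drugs. For the interval counts that follow, the share within 2-fold was 71.2% over all genes. It was 93.8% over genes with at least 5 CPM on average. All 18 pan-neuronal genes had an interval within 2-fold, with a median log2 difference of 0.01. Tubb3, the neuronal tubulin, differed by 0.29 (adjusted p = 0.580) and Snap25, a protein of vesicle fusion, by -0.28 (adjusted p = 0.581). Of 15 glutamatergic markers 14 had an interval within 2-fold, with a median of -0.15. Camk2a, a synaptic kinase subunit, was at -0.31 (adjusted p = 0.421) and Neurod1, a neuronal transcription factor whose gene model overlaps another, at -0.35 (adjusted p = 0.547). Of the 18 GABAergic markers 12 had an interval within 2-fold, with a median of -0.03 and estimates from -0.28 to 0.72. Lhx6, a transcription factor of interneurons, was at 0.54 (adjusted p = 0.529) and Nxph1, a neurexin ligand, at -0.19 (adjusted p = 0.629). Of 22 astrocyte genes 18 had an interval within 2-fold, with a median of 0.08, and the median changed sign in 1 of 17 alternative settings. It was -0.18 without the first 5-fluorouracil library and 0.22 without the third. Atp1b2, a glial sodium pump subunit, was at -0.40 (adjusted p = 0.476) and Acsbg1, an acyl-CoA synthetase, at 0.41 (adjusted p = 0.528). The astrocyte sum was 3656, 3007 and 2906 CPM under 5-fluorouracil and 3376, 3408 and 3733 CPM under cytosine arabinoside, against 5925 and 4934 CPM in the 0 µM libraries of 5-fluorouracil and 4637, 4928 and 7663 CPM in those of cytosine arabinoside.

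No gene of the lists of neuronal activity and of sterol synthesis was called. Over all genes, 53.4% had a log2 difference above 0 and 71.2% had an interval within 2-fold. The latter share was 93.8% over genes with at least 5 CPM on average. Of 33 activity-regulated genes 23 were below 0 and 10 above, and the median log2 difference was -0.27 (-0.44 to -0.08 over 17 alternative settings). At an unadjusted p under 0.05 (edgeR), 2 of the 33 were lower and 1 was higher. Of all genes 9.73% had such a p in either direction. Set against the own 0 µM libraries first, the median of the difference of effects was -0.05 for this list, with medians of 0.20 under 5-fluorouracil and 0.40 under cytosine arabinoside. Egr3, an immediate early transcription factor, had 68.7, 90.5 and 73.1 CPM under 5-fluorouracil and 115, 183 and 144 CPM under cytosine arabinoside, without overlap, and 66.0 and 106 CPM in the 0 µM libraries of 5-fluorouracil and 108, 82.1 and 108 CPM in those of cytosine arabinoside. Its log2 difference was -0.91 (95% interval -1.44 to -0.39, adjusted p = 0.283). Crh, corticotropin-releasing hormone, had 0.871, 0.310 and 0.583 CPM under 5-fluorouracil and 0, 0.439 and 0.127 CPM under cytosine arabinoside, with overlap. Its log2 difference pointed the other way, at 1.64 (95% interval 0.10 to 3.19, adjusted p = 0.489). Of 24 sterol synthesis genes 22 were below 0 with a median of -0.16 (-0.24 to -0.08 over 17 alternative settings), and all 24 intervals lay within 2-fold. Their median of the difference of effects was -0.22. At an unadjusted p under 0.05 (edgeR), 1 of the 24 was lower under 5-fluorouracil and 0 were higher. Cyp51, the lanosterol demethylase, had 1392, 581 and 620.5 CPM under 5-fluorouracil and 1491, 694 and 880.5 CPM under cytosine arabinoside (log2 difference -0.29, adjusted p = 0.503), with the GRC321 libraries the highest of each drug. Sc5d, a sterol desaturase, was also at -0.29 (adjusted p = 0.520). In the presynaptic list of 22 genes 14 were below 0 and 8 above with a median of -0.05. Sv2a, a synaptic vesicle protein, was at -0.30 (adjusted p = 0.357) and Vamp1, a protein of vesicle fusion, at 0.32 (adjusted p = 0.448). The remaining lists also had 0 calls. Their median log2 differences were 0.18 for 9 vascular genes, -0.85 for 5 ependymal genes of few counts, -0.09 for fatty acid synthesis, -0.07 for reactive glia, 0.08 for NRF2 targets, -0.03 for ATF4 and unfolded protein stress, 0.05 for the interferon response, -0.02 for growth factors of glia and -0.08 for mitochondrially encoded genes. The median of the perineuronal net list was -2e-04.

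Against the own 0 µM libraries, most called genes were lower under both drugs. The pair was chosen on these contrasts, so the counts describe it and carry no further reading. Under 5-fluorouracil 1 µM 619 genes (4.03%) were called, 106 (0.691%) higher and 513 (3.34%) lower. Under cytosine arabinoside 0.1 µM 1401 genes (9.13%) were called, 365 (2.38%) higher and 1036 (6.75%) lower. The 493 genes called under both were 79.6% of the 5-fluorouracil calls and 35.2% of the cytosine arabinoside calls, and all 493 had the same direction, 52 higher and 441 lower. Of the 595 genes called lower under cytosine arabinoside only, 574 also had a negative estimate under 5-fluorouracil, with medians of -0.47 under 5-fluorouracil and -0.83 under cytosine arabinoside. The 0 µM libraries were not shared between the drugs, and their numbers differ (2 and 3). Those of 5-fluorouracil were all GRC327, so its counts also rest on the project term. The 5-fluorouracil count was 346 without treated replicate 3, 406 without treated replicate 2 and 389 without the second 0 µM library. The cytosine arabinoside count was 906 without treated replicate 2.

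By list, the OPC genes had a median log2 change of -2.88 under 5-fluorouracil and -3.11 under cytosine arabinoside, and the myelin genes -3.48 and -3.47. The choice of the pair fixed these low medians. Mog, a late myelin protein, was at 22.9, 14.6 and 17.7 CPM under 5-fluorouracil and 23.7, 18.7 and 23.6 CPM under cytosine arabinoside, with 12.1 to 25.5 CPM over the 5 libraries at 0 µM, and its gene model overlaps another. For the counts that follow, 3.34% of all genes were called lower under 5-fluorouracil and 6.75% under cytosine arabinoside. Called higher were 0.691% and 2.38% of all genes in that order. The mitosis median was -0.82 under 5-fluorouracil (4 of 21 called lower) and -1.34 under cytosine arabinoside (15 of 21). For DNA replication it was -0.57 (2 of 20) and -0.95 (12 of 20), for progenitors -0.59 (5 of 15) and -1.11 (7 of 15), and for astrocytes -0.38 (6 of 22) and -0.49 (9 of 22). Sterol synthesis had medians of 0.19 under 5-fluorouracil (0 of 24 called higher) and 0.47 under cytosine arabinoside (11 of 24), and the GABAergic markers 0.37 (3 of 18 called higher) and 0.46 (9 of 18). These counts were not tested against each other. The test of the difference of effects, above, called 0 genes.

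**Figure D4:**
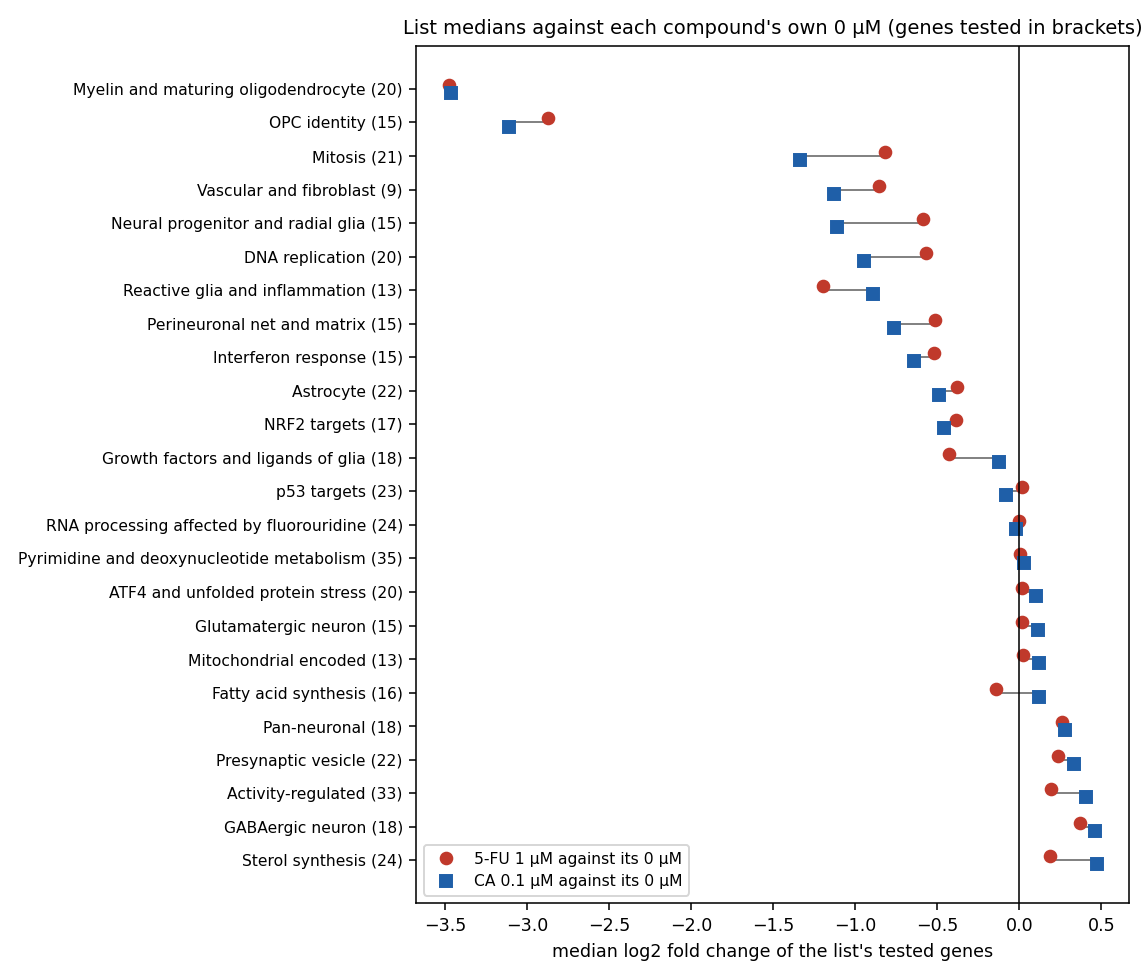
Median log2 change from the own 0 µM libraries over each gene list, with circles for 5-fluorouracil 1 µM above squares for cytosine arabinoside 0.1 µM. The myelin and OPC lists, whose low level chose the pair, lie at -3.48 and -2.88 under 5-fluorouracil and -3.47 and -3.11 under cytosine arabinoside.

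At equal concentrations the drugs differed widely. Counting 3 pairs adjusted together over all genes, 1827 genes (11.9%) were called at 0.1 µM, 1906 (12.4%) at 0.3 µM and 3376 (22%) at 1 µM (edgeR). Higher under 5-fluorouracil were 1243 (8.1%), 1403 (9.14%) and 2043 (13.3%) of them in that order of concentration, and lower were 584 (3.81%), 503 (3.28%) and 1333 (8.69%). The pair at 0.1 µM shares its cytosine arabinoside libraries with the direct comparison, and the pair at 1 µM shares its 5-fluorouracil libraries. Without the third 5-fluorouracil library at 0.1 µM the count at that concentration was 1038. 5-Fluorouracil itself called 1 gene (0.00652%) against its 0 µM libraries at 0.1 µM and 7 (0.0456%) at 0.3 µM, while cytosine arabinoside called 2703 (17.6%) at 0.3 µM and 5520 (36%) at 1 µM. The 7 included Cpm, Dusp15, Mag, Myrf and Ugt8, called lower, and Kank4, called higher. Of these Mag, Myrf and Ugt8 are in the myelin list, and Kank4 is the gene with 1 count in each 0 µM library of 5-fluorouracil.

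The cell cycle lists differed at every matched concentration. The mitosis median was 1.57 at 0.1 µM, 2.02 at 0.3 µM and 2.51 at 1 µM on the log2 scale, with 19, 19 and 18 of 21 genes called higher under 5-fluorouracil. For these counts and those that follow, 8.1%, 9.14% and 13.3% of all genes were called higher in the same pairs. The median for DNA replication was 0.83, 1.24 and 1.06, with 11, 14 and 11 of 20 called higher. Mcm3 differed by 1.71 (adjusted p = 2.91e-06), 1.64 (adjusted p = 1.1e-05) and 3.82 (adjusted p = 9.3e-13), and Nusap1 by 2.06, 2.77 and 2.68. In these pairs Mki67 differed by 1.41, 1.52 and 1.01. All 9 of these differences were called. Progenitor genes had medians of 0.87, 1.04 and 1.18, with 9, 10 and 8 of 15 called higher, and Nes differed by 1.25, 1.71 and 3.51.

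The other called genes of the direct comparison behaved unevenly at matched concentrations. Tmem109 was called at 0.1 µM (log2 difference 0.64, adjusted p = 0.00214) and at 1 µM (0.57, adjusted p = 0.00451) but not at 0.3 µM (0.31, adjusted p = 0.196). Sf3b3 was called at 1 µM only (0.85, adjusted p = 2.37e-09), with 0.02 at 0.1 µM and 0.13 at 0.3 µM. Ccdc120 and Nalcn were called at none of the 3 concentrations. Nalcn stood at -0.15 (adjusted p = 0.406), -0.12 (adjusted p = 0.535) and -0.14 (adjusted p = 0.447), and Ccdc120 at 0.20, -0.15 and 0.18. Whether these differences changed with concentration was not tested.

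Cell type lists also differed between the drugs at matched concentrations. In the pairs at 0.1, 0.3 and 1 µM the OPC median was 3.56, 3.26 and 1.75 and the myelin median 3.26, 1.91 and 0.32. The pairs at 0.1 and 1 µM share libraries with the chosen pair, so these medians are a description. Astrocyte genes went the other way along the series, with medians of 0.85, 1.78 and 2.94 and with 11, 18 and 18 of 22 called higher. The shares of all genes called higher under 5-fluorouracil were 8.1%, 9.14% and 13.3% at 0.1, 0.3 and 1 µM. The shares called lower were 3.81%, 3.28% and 8.69%. Against the own 0 µM libraries, the astrocyte median at 0.1, 0.3 and 1 µM was 0.24, 0.05 and -0.38 for 5-fluorouracil and -0.49, -1.75 and -3.55 for cytosine arabinoside. The activity-regulated median between the drugs was -0.37, -0.63 and -2.41, with 4, 13 and 30 of 33 called lower under 5-fluorouracil. Egr3 was called at 0.1 µM only (log2 difference -0.77, adjusted p = 0.0321). Sterol synthesis had medians of -0.44, -0.16 and 0.21, with 10 called lower at 0.1 µM, 2 lower at 0.3 µM and 7 higher at 1 µM of 24.

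Of the 35 pyrimidine genes, 2, 4 and 5 were called higher under 5-fluorouracil at 0.1, 0.3 and 1 µM and 0, 0 and 2 lower, with medians of 0.01, -0.01 and 0.08. Over all genes, 11.9%, 12.4% and 22% were called in either direction. Tyms was called in none of the 3 pairs, with log2 differences of 0.35, -0.04 and -0.37 at 0.1, 0.3 and 1 µM, and neither was Dck, with 0.06, 0.18 and 0.41. Dpyd was called at 1 µM (1.13, adjusted p = 0.00141) and Tk1 at 0.3 µM (1.47, adjusted p = 5.18e-05) and 1 µM (2.00, adjusted p = 1.42e-07). Dpyd and Tk1 were higher under 5-fluorouracil at these concentrations.

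**Figure D5:**
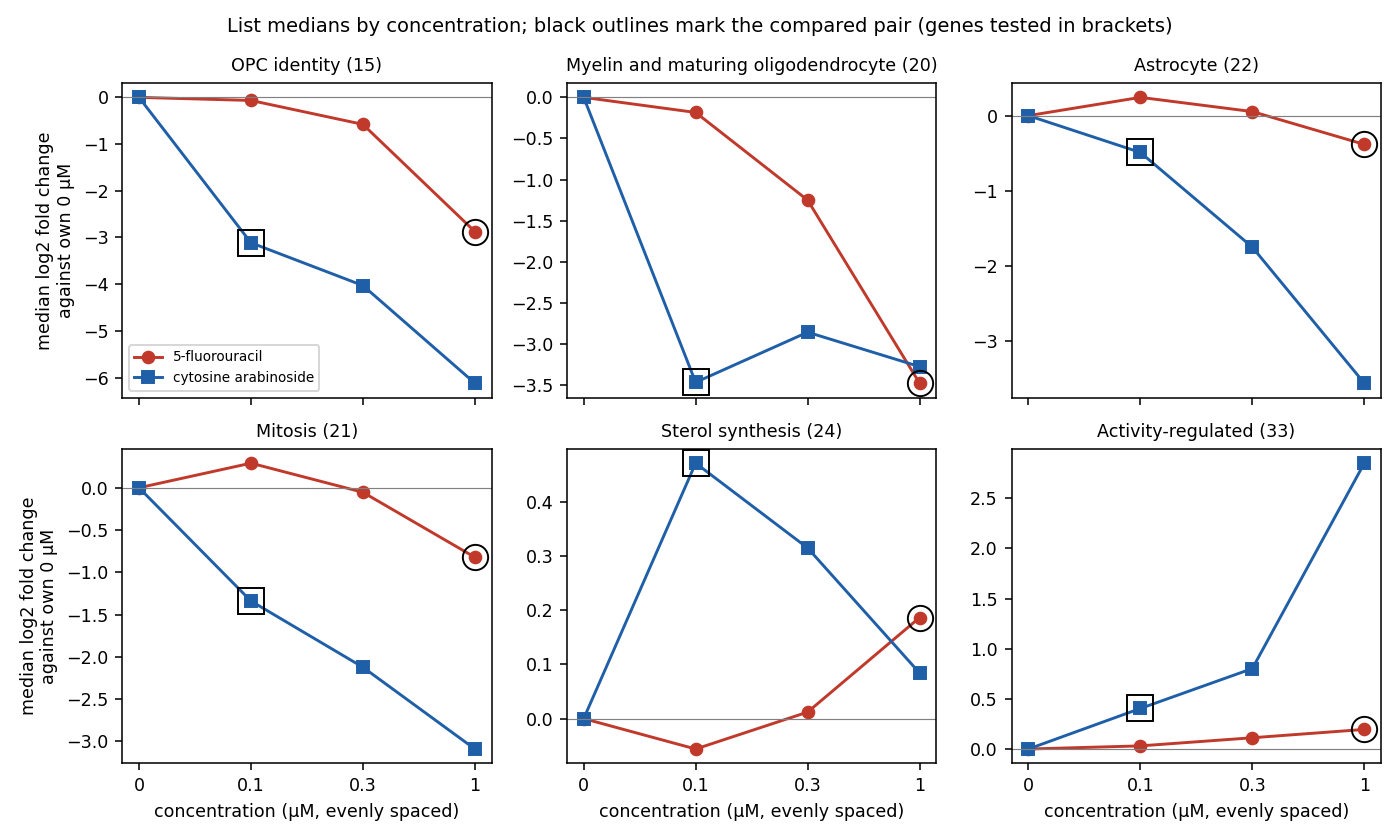
Median log2 change from the own 0 µM libraries against concentration (0, 0.1, 0.3 and 1 µM) for 6 gene lists under 5-fluorouracil and cytosine arabinoside, with outlines on the points of the compared pair. At the outlined points the OPC medians are -2.88 and -3.11, while at 1 µM the astrocyte medians are -0.38 under 5-fluorouracil and -3.55 under cytosine arabinoside.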

How the data were processed

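PolyA-selected RNA from rat cortical cultures was sequenced, and STAR and Partek were used, per the submitters' processing notes; versions, build and strandedness are not given in the sources used here. The gene table as deposited holds estimated counts made by the authors, 20.6% of which are not whole and were rounded here. A second deposited table holds CPM, which equal those counts scaled to library size plus an offset of 1e-04 (largest relative difference 9.37e-06) and were used in an alternative only.

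One edgeR quasi-likelihood model (version 4.0.16, R 4.3.3) took the counts of all 71 libraries, with TMM factors of 0.875 to 1.155, a low-count filter (filterByExpr, minimum count 10, by group), 25 groups and 1 project term per compound, leaving 40 residual degrees of freedom, at a common biological coefficient of variation of 15.6%. The filter kept 15343 of 19771 genes. p-values were two-sided and adjusted by Benjamini-Hochberg over all genes, and for the matched concentrations over the 3 pairs together. Intervals are 95% and cover the model's error. DESeq2 1.42.0 and limma 3.58.1 gave alternatives, as did other filters, project terms, subsets of libraries and leaving out each library.

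The members, gene lists and tests were chosen with earlier results of these data known. Called genes outside the oligodendrocyte lists were named where the 3 + 3 libraries did not overlap, and in each list up to 4 called members or else up to 2 of smallest p, besides fixed pyrimidine and oligodendrocyte genes. Mcm3 is named under its list. Kank4, Mog, Mcm5, Cpm, Dusp15, Myrf and Ugt8 were named after their values were seen. Of 53 named genes checked, 7 have a gene model that overlaps another. Some genes of these lists are not reported here.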

Additional observations from a re-analysis of the deposited data

Results flagged for a closer look

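Tmem109 met the condition that every library of one group moved one way from its 0 µM mean and every library of the other the opposite way. The condition was checked only among called genes outside the oligodendrocyte lists whose treated libraries did not overlap. How many of all genes would meet it was not counted. It had 14.8, 12.1 and 13.9 CPM under 5-fluorouracil 1 µM against 12.2 and 10.6 CPM at its 0 µM, and 6.38, 9.00 and 9.12 CPM under cytosine arabinoside 0.1 µM against 8.19, 10.2 and 11.1 CPM at its 0 µM. The log2 difference between the treated groups was 0.75. The test of the difference between the effects gave 0.53 (95% interval 0.07 to 0.99, adjusted p = 1, edgeR), which did not pass the threshold. Whether the directions were opposite was not itself tested. The 0 µM mean of 5-fluorouracil holds GRC327 libraries only, and the condition carries no project term.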

How the results depend on the processing

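The direct comparison called 6 genes, and this count was unstable: DESeq2 called 12 (3 of them shared, 6 higher and 6 lower), no filter on low counts left 2, a single project term for all compounds 2, no project term 1, GRC327 libraries alone 0, the libraries of the 2 drugs alone 0 and the 6 libraries alone 1 (0 shared). DESeq2 size factors and a minimum count of 50 gave 6 each and limma on the deposited CPM 9. Leaving out 1 library gave 0 to 1. None of the 6 called genes changed sign, and their refits lost the call 64 times and kept it 35 times, leaving out 3 for which DESeq2 gave no adjusted p. These totals include Pdgfra, a gene that chose the pair, so they do not describe the other called genes alone. The difference of effects, 0 genes, was 1 with DESeq2 and 0 to 1 without 1 library, with 1 without the first 0 µM library of cytosine arabinoside or the third 5-fluorouracil library. The 0 µM comparison, 1 gene, was 0 with a minimum count of 50, 0 with no project term, 0 with GRC327 alone and 0 to 1 without 1 library. Against the own 0 µM libraries, the 5-fluorouracil count of 619 was 274 with no project term (19 higher, 255 lower), 336 with the drugs' libraries alone, 2613 with all 0 µM libraries as control (1260 higher, 1353 lower) and 346 to 654 without 1 library. The cytosine arabinoside count of 1401 was 505 with no project term (51 higher, 454 lower), 896 with GRC327 alone, 809 with the drugs' libraries alone, 2441 with all 0 µM libraries (1053 higher, 1388 lower) and 906 to 1186 without 1 library. With no project term the matched counts were 772 at 0.1 µM (675 higher, 97 lower), 1040 at 0.3 µM (913 higher, 127 lower) and 1740 at 1 µM (1189 higher, 551 lower), and without 1 library 1038 to 1760, 1459 to 1854 and 2585 to 3244. The cause of these shifts was not tested. List medians moved beyond the spread between replicates in 6 refits. The vascular median, 0.18, was -0.20 with DESeq2, and the ATF4 median, -0.03, was 0.12 with GRC327 alone. The labels carry no replicate numbers. The serial numbers in the GRC327 titles fall into 2 runs with 1 library of each group, and nothing says that a run shares a culture. With these runs as a replicate block, chosen after seeing the data, the direct comparison called 7 genes, the same 6 among them, and the difference of effects 0. Differences between the runs correlated across genes at -0.10 to 0.36 between groups (0.16 in the pair). At 8.36 to 11.7 M counts a library, genes near 0 such as Gpr17 and Upp1 rest on few counts.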
